A study of Mus musculus with 8 samples.

Results

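The genes described here are 39 genes of cell division and DNA replication, from a list chosen with earlier results of these data known. They were 18 genes of mitosis, 17 of replication and 4 regulators of the G1 phase. A gene counted as measured where a probe set of the array was annotated to its symbol alone, and the brightest such probe set stood for it. This gave 37 of the 39 genes, out of 19937 genes on the array. Ccnb1 and Cdkn1a had no such probe set, which left 17 mitotic members, 17 replication members and 3 regulators of G1.

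The study set B cells of mice that express HGAL against those of wild-type mice. HGAL, also called GCET2, is a signalling adaptor normally made by B cells of the germinal centre. The Sca1-HGAL mice carried it under the Sca1 (Ly-6E.1) promoter, which is active in blood stem and progenitor cells and in some mature cells, so the gene is not limited to germinal centre B cells as it is by its own promoter. The labels call these mice transgenic in the design text and knock-in elsewhere. The Control mice were wild-type littermates, and both groups were adult mice of a CBAxC57BL/6J background that received no treatment named in the labels. Spleen cells that carried CD22 and B220 were collected by flow sorting, and their total RNA was read on Mouse Gene 1.0 ST arrays from Affymetrix, 4 for each group. The labels do not say that each array stands for a separate mouse, so p-values measure only the spread between these samples. The level of the HGAL transgene was not checked here.

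Most mature splenic B cells rest outside the cell cycle. Entry into it starts with D-type cyclins and their kinases, which release E2F transcription factors. E2F factors switch on the genes that license and copy DNA, and a later wave, driven through promoter elements bound by the MuvB complexes with B-MYB and FOXM1, makes the cyclins, kinases and motors of mitosis. In a bulk sample of B cells, a lower level of these transcripts can come from fewer cycling cells or from less RNA in each cell, and these cannot be told apart.

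Values are log2 intensities, and a fold is the Sca1-HGAL mean minus the Control mean on that scale, with its standard error (SE). The 8 arrays had median intensities from 145.2 to 151.4 before log2 was taken. The 8 measured B-cell markers of 9 listed averaged 12.93 to 12.97 in Control arrays and 12.88 to 12.91 in Sca1-HGAL arrays, which fits the labelled cell type. Xist was at 12.17 in Control 2 and 12.18 in Control 4 and at 5.28 to 5.65 in the other arrays, while the Y-linked Eif2s3y was at 4.22 and 3.96 in those Control arrays and at 10.21 to 10.61 in the others. The 2 groups were therefore not matched for these sex-linked genes, and results are also given for the 6 arrays with low Xist. Array Sca1-HGAL 1 stood apart from the other Sca1-HGAL arrays for many members, and array Control 1 from the other Control arrays, so results are given with and without each.

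The promoter windows of mitotic and replication members held different words. RefSeq promoter windows on GRCm38.p6, each reaching from 250 bases before a start site to 50 bases from it onward, were found for 15 mitotic members, 15 replication members (17 windows) and 3 regulators of G1 (5 windows). Words were searched on both strands: TTTGAA, a form of the cell cycle genes homology region (CHR) bound by MuvB complexes; CCAAT, bound by NF-Y; and TTTCCCGC, TTTGGCGC, TTTCGCGC and TTTGCCGC, forms of the E2F site. The CHR word was in 10 of the 15 mitotic windows (66.7%) and 3 of the 17 replication windows (17.6%), against 17.9% of all 32851 windows. E2F words were in 6 of the 17 replication windows (35.3%) and 1 of the 15 mitotic windows (6.67%), against 2.26% of all windows. CCAAT was in 86.7% of mitotic windows and 70.6% of replication windows, against 37.4% of all. The 5 windows of the G1 regulators held CCAAT in 2 and neither the CHR word nor an E2F word. A match is a description of these letters and not a measured site, and a window without a match says nothing about the factor.

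The following mitotic promoters are shown because they hold the CHR word before the start site and belong to genes whose levels moved together over the arrays, as described further on. Each is printed 5′ to 3′ in the direction of the gene and ends at the base before the start site. Capitals mark the CHR word, CCAAT and, in Cdk1, an E2F word, on either strand. A word matched on the opposite strand is printed as its reverse complement.
Kif11 chr19:37376222-37376381, plus strand: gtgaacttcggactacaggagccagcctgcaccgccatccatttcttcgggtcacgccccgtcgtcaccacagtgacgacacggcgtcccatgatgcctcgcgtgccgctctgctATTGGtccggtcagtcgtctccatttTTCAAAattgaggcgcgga
Top2a chr11:99024190-99024369, minus strand: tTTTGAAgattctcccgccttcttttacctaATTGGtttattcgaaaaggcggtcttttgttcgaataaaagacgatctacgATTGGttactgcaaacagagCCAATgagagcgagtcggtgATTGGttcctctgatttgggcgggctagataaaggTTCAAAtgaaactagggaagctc
Cdk1 chr10:69352913-69353072, minus strand: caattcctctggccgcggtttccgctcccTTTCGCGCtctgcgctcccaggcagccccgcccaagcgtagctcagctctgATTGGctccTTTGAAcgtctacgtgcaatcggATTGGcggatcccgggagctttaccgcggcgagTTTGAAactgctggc
Cdc20 chr4:118437344-118437503, minus strand: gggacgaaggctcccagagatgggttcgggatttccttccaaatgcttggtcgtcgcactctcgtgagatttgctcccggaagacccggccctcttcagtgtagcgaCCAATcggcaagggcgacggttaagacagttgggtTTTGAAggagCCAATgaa
In Kif11 a CHR word lay 19 bases before the start on the opposite strand, with CCAAT 45 bases before it. Top2a, Cdk1 and Cdc20 had a CHR word 23, 15 and 18 bases before the start, and each also had CCAAT words. The E2F word of Cdk1 began 131 bases before the start, and Cdk1 was the mitotic member with an E2F word in its window.

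The replication promoters below are shown because 4 of them hold E2F words, and because Rrm2 and Pcna, which hold none in these windows, had the widest spread over arrays among the replication members. Capitals mark E2F words and CCAAT on either strand, and adjoining or overlapping words run together.
Mcm5 chr8:75109349-75109508, plus strand: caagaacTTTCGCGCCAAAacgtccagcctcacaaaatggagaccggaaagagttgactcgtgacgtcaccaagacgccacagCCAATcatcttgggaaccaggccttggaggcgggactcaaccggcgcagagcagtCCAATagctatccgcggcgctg
Mcm6 chr1:128359706-128359865, minus strand: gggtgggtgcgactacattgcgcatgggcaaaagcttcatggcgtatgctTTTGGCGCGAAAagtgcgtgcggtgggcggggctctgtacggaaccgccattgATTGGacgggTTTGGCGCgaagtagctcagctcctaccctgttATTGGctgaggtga
Mcm7 chr5:138171884-138172063, minus strand: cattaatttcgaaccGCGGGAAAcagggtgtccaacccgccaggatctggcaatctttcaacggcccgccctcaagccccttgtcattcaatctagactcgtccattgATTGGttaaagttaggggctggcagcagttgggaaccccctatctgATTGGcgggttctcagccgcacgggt
Cdc6 chr11:98907991-98908150, plus strand: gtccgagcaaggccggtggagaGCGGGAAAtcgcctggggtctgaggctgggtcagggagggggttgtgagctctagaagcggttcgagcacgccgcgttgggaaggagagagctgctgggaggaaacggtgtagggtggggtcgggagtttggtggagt
Rrm2 chr12:24708094-24708253, plus strand: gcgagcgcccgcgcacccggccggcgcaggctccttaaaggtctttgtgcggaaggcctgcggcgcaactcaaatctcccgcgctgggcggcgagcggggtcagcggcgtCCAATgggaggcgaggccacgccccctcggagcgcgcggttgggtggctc
Pcna chr2:132253181-132253340, minus strand: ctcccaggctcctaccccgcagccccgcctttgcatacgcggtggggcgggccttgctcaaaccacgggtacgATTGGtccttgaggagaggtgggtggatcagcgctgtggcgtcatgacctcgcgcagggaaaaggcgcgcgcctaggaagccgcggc
In Mcm5 and Mcm6 a pair of E2F words on opposite strands overlapped, beginning 153 and 149 bases before the start in Mcm5 and 110 and 106 bases before it in Mcm6. Mcm6 had a further E2F word 47 bases before the start. Mcm7, in the window of the more upstream of its 2 starts, and Cdc6 each had TTTCCCGC on the opposite strand, 165 and 138 bases before the start. Rrm2 and Pcna had a single CCAAT word each, 50 and 87 bases before the start.

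**Figure D1:**
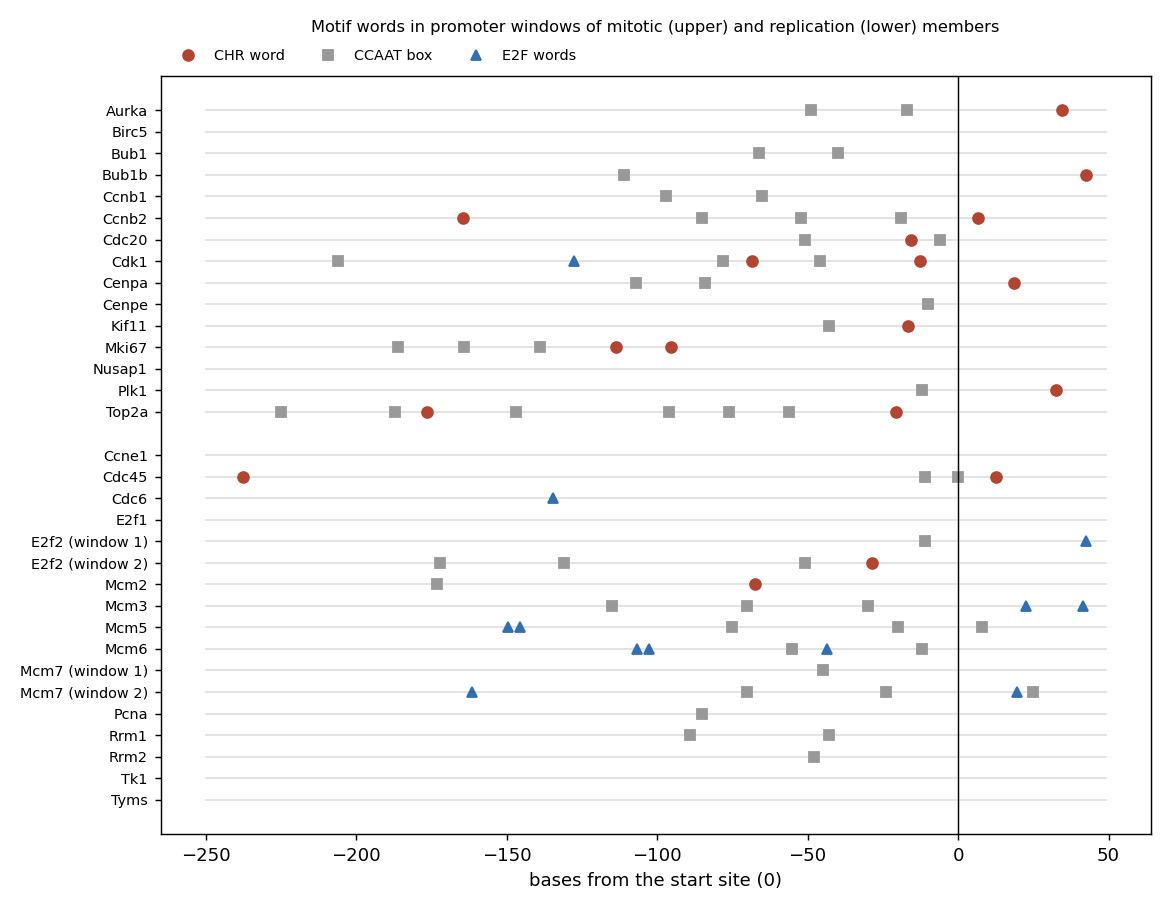
Positions of the searched words in the RefSeq promoter windows of mitotic (upper) and replication (lower) members, in bases from the start site. Circles mark the CHR word, squares CCAAT and triangles E2F words; circles lie in 10 of 15 mitotic windows and triangles in 6 of 17 replication windows.

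No member passed a limma adjusted p under 0.05 between Sca1-HGAL and Control B cells, and among all 21640 probe sets tested 1 did (0.00462%). The mitotic members had a median log2 fold of -0.21, and 15 of 17 folds were negative, from -0.60 to 0.05. The replication members had a median of -0.03, with 12 of 17 negative and a range from -0.33 to 0.17. Over all 19937 genes the median fold was 0.02 and 43.6% of folds were negative. The members were read on the same arrays and most moved together, so their folds are not independent of each other. At an unadjusted limma p under 0.05, 2 of the 37 members, the replication genes Ccne2 and E2f1, were lower in Sca1-HGAL arrays, as were 4.03% of all genes. Of all genes 5.49% were higher at that threshold, and 0 members were. In no member did all Sca1-HGAL arrays lie below all Control arrays, which held for 2.37% of all genes. In 2 members, Mcm6 and Cdkn1b, all lay above, which held for 3.10% of all genes.

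The arrays of each group were far apart in these genes, and the mean level of the mitotic members shows it. It was 7.09, 7.46, 7.69 and 7.67 in Control 1 to 4 and 7.81, 7.11, 7.08 and 7.12 in Sca1-HGAL 1 to 4, or 7.48 ± 0.28 (SD, n = 4) and 7.28 ± 0.35 (SD, n = 4). Sca1-HGAL 1 was the highest of all 8 arrays, the other Sca1-HGAL arrays were level with Control 1, and Control 2 to 4 lay between. The mean of the replication members was 8.26, 8.38, 8.49 and 8.43 in Control and 8.57, 8.27, 8.27 and 8.25 in Sca1-HGAL arrays, or 8.39 ± 0.10 (SD, n = 4) and 8.34 ± 0.15 (SD, n = 4). The same arrays were high and low, over a narrower range.

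The member genes shared this order one by one. Sca1-HGAL 1 was the highest array of its group in 16 of 17 mitotic and 15 of 17 replication members, 89.2% of the 37 members, against 23.6% of all genes. Control 1 was the lowest array of its group in 15 of 17 mitotic and 13 of 17 replication members, 75.7% of the 37, against 31.1% of all genes. The range over the 8 arrays had a median of 0.87 in mitotic members, 0.46 in replication members and 0.35 in all genes. It was 2.26 in Mki67, more than in any other member.

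**Figure D2:**
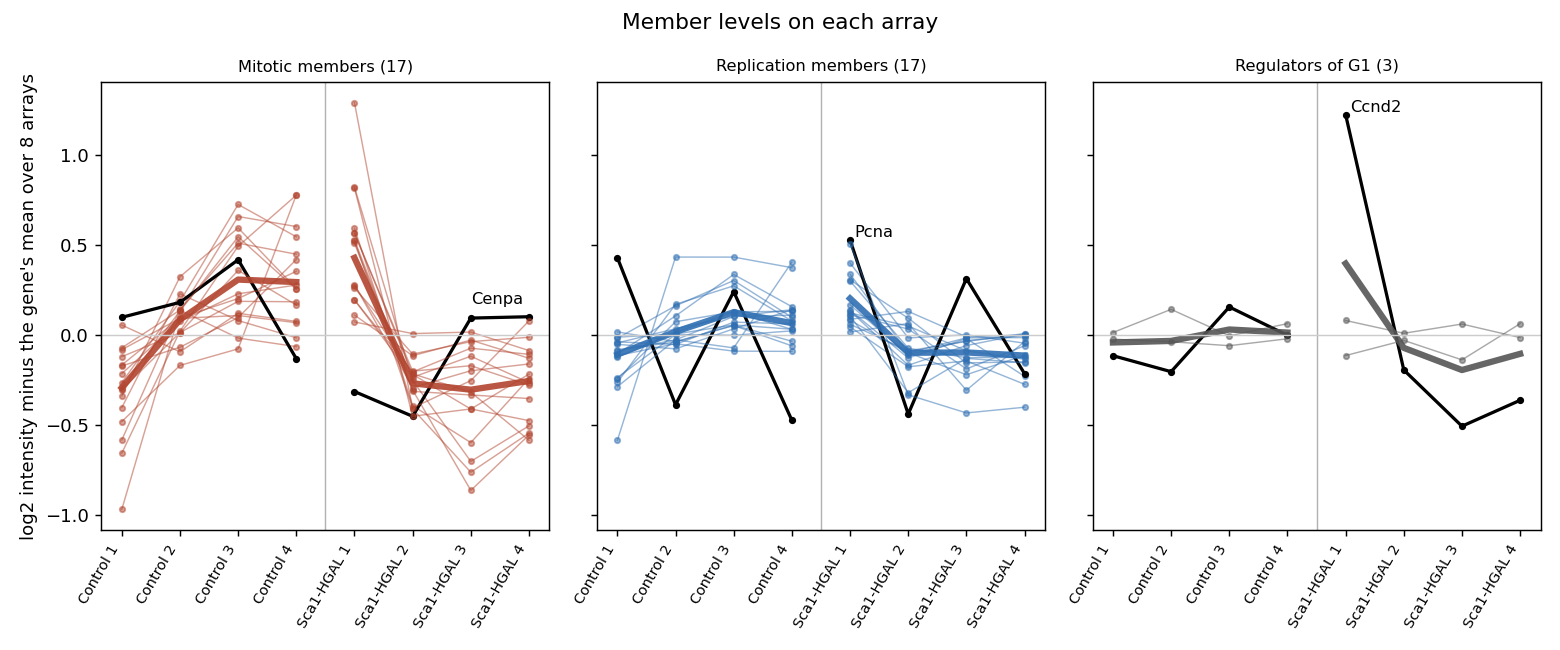
Log2 intensity of each measured member minus its own mean over the 8 arrays, by array, for 17 mitotic members, 17 replication members and 3 regulators of G1; thick lines are the means of the members and black lines the genes named on the plot. Sca1-HGAL 1 lies high and Control 1 low in most members, while Pcna and Cenpa follow other orders.

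The cyclins and the kinase that start mitosis followed the shared order. Ccnb2, a B-type cyclin, was at 8.25, 8.51, 8.62 and 8.77 in Control and 8.93, 8.10, 8.08 and 8.06 in Sca1-HGAL arrays. Sca1-HGAL 1 was above every Control array and the other 3 below every one. Its fold was -0.24 (SE 0.19, limma adjusted p = 0.74). Ccna2, the A-type cyclin of S phase and mitosis, had a fold of -0.32 and levels from 6.72 in Control 1 to 8.15 in Control 4. Cdk1, the kinase both cyclins bind, had a fold of -0.04 and levels from 6.78 in Control 1 to 7.65 in Sca1-HGAL 1.

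The kinases and the checkpoint of the spindle included the members with the most negative folds. Bub1, a kinase of the spindle checkpoint, was at 5.87, 6.32, 6.86 and 6.68 in Control and 6.66, 5.83, 5.27 and 5.58 in Sca1-HGAL arrays. Sca1-HGAL 2 to 4 lay below all Control arrays and Sca1-HGAL 1 among them, and the fold was -0.60 (SE 0.29, limma adjusted p = 0.55). The kinase Aurkb, which corrects the attachment of chromosomes to the spindle, was at 8.05, 8.71, 8.98 and 8.65 in Control and 8.66, 8.17, 8.07 and 7.80 in Sca1-HGAL arrays. It had a fold of -0.42 (SE 0.21, adjusted p = 0.57), and its groups overlapped through Sca1-HGAL 1 and through Control 1, which lay below Sca1-HGAL 2 and 3. Aurka, a kinase of spindle poles, was at 7.78, 7.64, 7.85 and 7.81 in Control and 7.84, 7.61, 7.70 and 7.60 in Sca1-HGAL arrays. Its groups overlapped within a narrow range, and its fold was -0.08 (SE 0.07, adjusted p = 0.79). Cdc20, which activates the ubiquitin ligase that ends metaphase, was at 7.34, 7.51, 7.53 and 7.49 in Control and 7.62, 7.22, 7.35 and 7.31 in Sca1-HGAL arrays. Its groups also overlapped, at a fold of -0.09 (SE 0.09, adjusted p = 0.79). Plk1, a kinase of mitotic entry, had a fold of -0.14 over levels from 6.98 to 7.96. Bub1b, a partner of the checkpoint, had a fold of 0.05 over levels from 6.32 to 6.99.

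Among the motors of the spindle, Kif11, which pushes the poles apart, showed the shared order most plainly. Its levels were 6.32, 7.05, 7.41 and 7.35 in Control and 7.72, 6.45, 6.49 and 6.43 in Sca1-HGAL arrays, and its fold was -0.26 (SE 0.32, limma adjusted p = 0.84). Its levels correlated with the mean of the other mitotic members at r = 0.991 over the 8 arrays. Kif20a, a kinesin of cytokinesis, was at 6.50, 6.79, 6.94 and 6.99 in Control and 6.99, 6.42, 6.52 and 6.55 in Sca1-HGAL arrays. Its fold was -0.18 (SE 0.14, adjusted p = 0.73), and Sca1-HGAL 1 matched the highest Control array. Cenpe, a kinetochore motor, was dim, at 5.82, 5.96, 6.30 and 6.11 in Control and 6.14, 5.71, 5.83 and 5.68 in Sca1-HGAL arrays. Its groups overlapped at a fold of -0.21 (SE 0.12, adjusted p = 0.64), and it was the one member with a mean under log2 6, where RMA intensities shrink folds.

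Mki67 and Top2a, the usual markers of cycling cells, had the same order. The range over the 8 arrays was 2.26 in Mki67 and 1.52 in Top2a, beside 1.59 in Bub1. Mki67, whose protein coats mitotic chromosomes, was at 7.07, 8.17, 8.69 and 8.64 in Control and 9.33, 7.63, 7.27 and 7.49 in Sca1-HGAL arrays. Its fold of -0.21 (SE 0.47, limma adjusted p = 0.93) had a 95% confidence interval from -1.26 to 0.84. Top2a, the topoisomerase that untangles sister chromatids, was at 6.91, 7.34, 7.76 and 7.46 in Control and 8.03, 6.96, 6.51 and 6.71 in Sca1-HGAL arrays, a fold of -0.32 (SE 0.30, adjusted p = 0.79). In both genes Sca1-HGAL 1 was above every Control array, and the other 3 overlapped with Control 1 alone. A much dimmer Top2a probe set did not share this order. It lay between 4.04 and 4.62, was highest in Control 1, and had a fold of -0.11 (SE 0.12, adjusted p = 0.82). Its r with the brighter Top2a probe set was 0.32 over the 8 arrays. Nusap1, which bundles spindle microtubules, had a fold of -0.03 over levels from 6.82 to 8.08.

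Cenpa and Birc5 had the lowest correlations with the mean of the other mitotic members. Cenpa, the histone H3 variant of centromeres, was at 10.03, 10.12, 10.35 and 9.80 in Control and 9.62, 9.48, 10.03 and 10.04 in Sca1-HGAL arrays. Sca1-HGAL 1 and 2 were its lowest arrays, its correlation with the mean of the other mitotic members was -0.04 over the 8 arrays, and its fold was -0.28 (SE 0.15, limma adjusted p = 0.58). Birc5, the survivin subunit that works with Aurkb, lay between 6.62 and 6.85 on all arrays, with a fold of 0.01 and a correlation of 0.31. Within that narrow range Sca1-HGAL 1 was still the highest of its group and Control 1 the lowest of its own. The correlations of the other 15 mitotic members ran from 0.664 to 0.991.

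**Figure D3:**
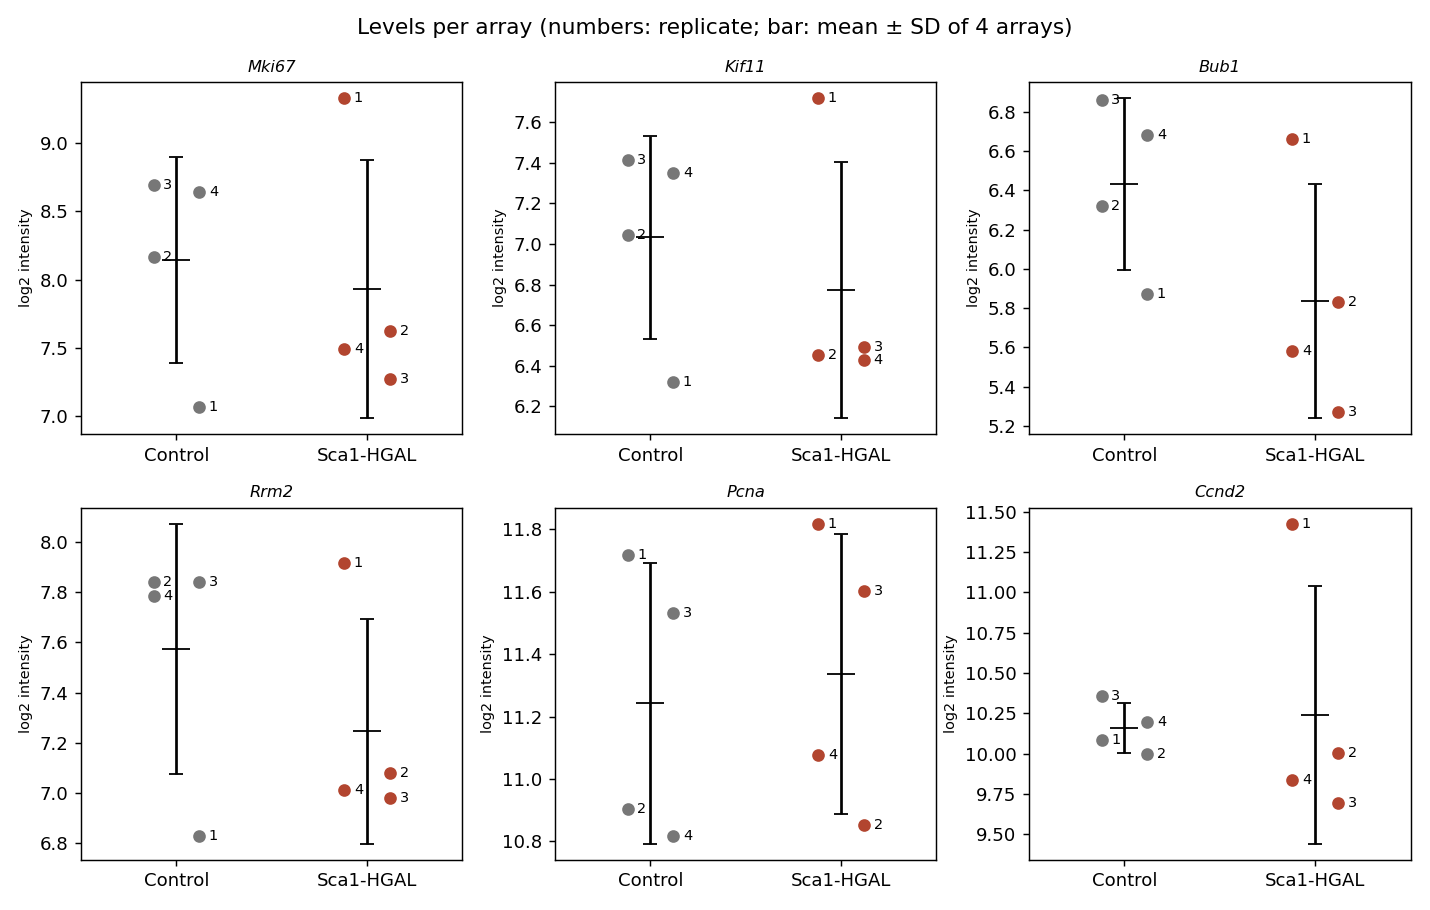
Log2 intensity of 6 members on each array, with the replicate number beside each point and the mean ± SD of 4 arrays as bars. In Mki67, Kif11 and Rrm2, Sca1-HGAL 1 lies above every Control array and Control 1 lies low, Bub1 shares the low Control 1, Ccnd2 is high in Sca1-HGAL 1 alone, and Pcna is high in replicates 1 and 3 of both groups.

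The regulators that open replication held the 2 members at an unadjusted limma p under 0.05. Ccne2, a cyclin E that drives entry into S phase with Cdk2, was at 6.22, 6.40, 6.54 and 6.34 in Control and 6.28, 6.06, 6.09 and 5.97 in Sca1-HGAL arrays. The 3 last Sca1-HGAL arrays lay below all Control arrays, Sca1-HGAL 1 lay above Control 1, and the fold was -0.27 (SE 0.09, adjusted p = 0.36). E2f1, a transcription factor of replication genes, was at 7.67, 7.88, 8.11 and 7.94 in Control and 7.88, 7.46, 7.65 and 7.62 in Sca1-HGAL arrays. It overlapped in the same way, with a fold of -0.25 (SE 0.11, adjusted p = 0.51). Ccne1, the other cyclin E, had a fold of 0.05, and E2f2 one of -0.01.

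The genes that license and unwind DNA lay within 0.17 of a fold of 0. Mcm6, a subunit of the MCM helicase, was at 8.99, 9.06, 9.01 and 9.01 in Control and 9.50, 9.09, 9.11 and 9.06 in Sca1-HGAL arrays. All Sca1-HGAL arrays were above all Control arrays, the lowest by less than 0.01, and the fold was 0.17 (SE 0.10, limma adjusted p = 0.61). Mcm7 was at 8.90, 8.98, 9.05 and 9.09 in Control and 9.08, 8.82, 8.93 and 8.72 in Sca1-HGAL arrays. Its groups overlapped, and its fold was -0.12 (SE 0.08, adjusted p = 0.71). Mcm2 was at 8.96, 9.02, 9.15 and 9.16 in Control and 9.16, 9.08, 8.86 and 8.99 in Sca1-HGAL arrays, with a fold of -0.05 (SE 0.08, adjusted p = 0.89) and full overlap. The other helicase subunits Mcm3, Mcm4 and Mcm5 had folds of -0.02, -0.04 and -0.03. Cdc6, which loads the helicase, had a fold of -0.13, and Cdc45, which joins it at firing origins, one of -0.02.

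Pcna, the sliding clamp of DNA polymerases, followed an order of its own. Its levels were 11.72, 10.90, 11.53 and 10.82 in Control and 11.82, 10.85, 11.60 and 11.08 in Sca1-HGAL arrays. Replicates 1 and 3 were high and 2 and 4 low in both groups, and the fold was 0.09 (SE 0.25, limma adjusted p = 0.94). A further Pcna probe set had the same order, at 11.13, 10.76, 11.05 and 10.72 in Control and 11.11, 10.66, 11.29 and 10.90 in Sca1-HGAL arrays. Cst3, a secreted protease inhibitor picked after the values were seen as the gene most like Pcna, had r = 0.989 with it over the 8 arrays, among 15688 genes compared.

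Of the enzymes that make DNA building blocks, Rrm2 and Tyms had the order of arrays seen in the mitotic members, with r of 0.954 and 0.957 to the mitotic mean over the 8 arrays. Rrm2, the regulated subunit of ribonucleotide reductase, was at 6.83, 7.84, 7.84 and 7.78 in Control and 7.92, 7.08, 6.98 and 7.01 in Sca1-HGAL arrays. Control 1 and Sca1-HGAL 1 each lay away from the rest of their group, and the fold was -0.33 (SE 0.27, limma adjusted p = 0.75). Tk1, thymidine kinase, was at 8.27, 8.51, 8.51 and 8.53 in Control and 8.60, 8.64, 8.50 and 8.51 in Sca1-HGAL arrays. Its groups overlapped, with Control 1 low, at a fold of 0.11 (SE 0.07, adjusted p = 0.70). A dimmer Tk1 probe set had a fold of 0.07 (SE 0.12, adjusted p = 0.89). It was highest in Sca1-HGAL 2, at 8.69, and had r = 0.62 with the brighter Tk1 probe set over the 8 arrays. Tyms, thymidylate synthase, had a fold of -0.05 over levels from 7.22 in Control 1 to 7.80 in Sca1-HGAL 1. Rrm1, the large subunit of ribonucleotide reductase, had a fold of 0.01 over levels from 9.34 to 9.62.

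Of the G1 regulators, Ccnd2 was high in a single array. This D-type cyclin, which answers B-cell receptor signals, was at 10.09, 10.00, 10.36 and 10.20 in Control and 11.42, 10.01, 9.69 and 9.84 in Sca1-HGAL arrays, with a fold of 0.08 (SE 0.32, limma adjusted p = 0.96). Without Sca1-HGAL 1 its fold was -0.31 (adjusted p = 0.31), so that array set its sign. Ccnd3, another D-type cyclin, was at 9.53, 9.66, 9.51 and 9.58 in Control and 9.40, 9.49, 9.38 and 9.58 in Sca1-HGAL arrays. Its groups overlapped, with a fold of -0.11 (SE 0.07, adjusted p = 0.65). Cdkn1b, the CDK inhibitor p27, was at 11.07, 11.06, 11.04 and 11.08 in Control and 11.18, 11.11, 11.16 and 11.08 in Sca1-HGAL arrays. Its groups did not overlap, but only just, with Control 4 at 11.076 and Sca1-HGAL 4 at 11.082, and the fold was 0.07 (SE 0.05, adjusted p = 0.73). A dimmer Cdkn1b probe set had a fold of 0.31 (SE 0.11, adjusted p = 0.40). There the groups overlapped, with Control 1 at 8.44 above Sca1-HGAL 1 at 8.39 and Sca1-HGAL 4 at 8.35.

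**Figure D4:**
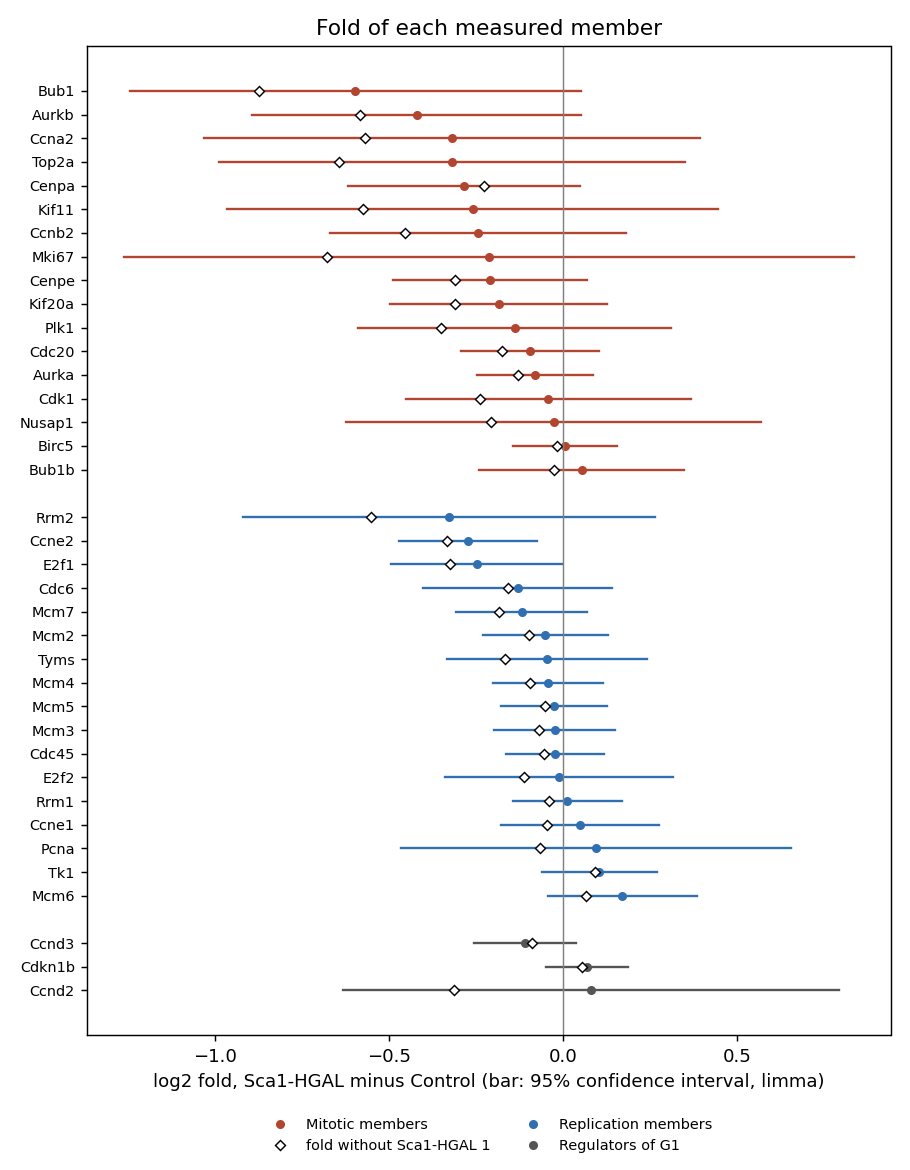
Log2 fold (Sca1-HGAL minus Control) of each measured member with its limma 95% confidence interval, by role, and as open diamonds the fold without Sca1-HGAL 1. Without that array all 17 mitotic folds are negative, against 15 of 17 with it. That array was the highest of its group in 16 of the 17 mitotic members.

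The count of members at an unadjusted p under 0.05 depended on the array left out. Sca1-HGAL 1 was the highest of its group in 89.2% of the members, against 23.6% of all genes. Leaving it out therefore had to lower the folds of most members. The same held for Control 1, the lowest of its group in 75.7% of the members, against 31.1% of all genes. In these fits the share of all genes is thus not a like comparison for the count of members. Without Sca1-HGAL 1, all 17 mitotic folds were negative with a median of -0.31, and 15 of 17 replication folds with a median of -0.09. At an unadjusted limma p under 0.05, 14 of the 37 members were then lower, against 4.83% of all genes in the same fit. They were 9 mitotic members (Top2a, Ccnb2, Aurkb, Bub1, Plk1, Cenpe, Kif11, Kif20a and Cdc20), 4 replication members (Ccne2, Mcm7, Rrm2 and E2f1) and Ccnd2. None passed an adjusted p under 0.05, and the lowest were 0.21 for Ccnb2 (fold -0.45), 0.21 for Ccne2 (-0.33), 0.22 for Bub1 (-0.87) and 0.26 for Top2a (-0.64), by limma. Without Control 1, 6 members were lower (Aurkb, Bub1, Ccne2, Rrm2, Cdc6 and E2f1), against 3.92% of all genes, and the mitotic median was -0.29. Without Control 2, Control 3 or Sca1-HGAL 2 the count was 1, and without Control 4, Sca1-HGAL 3 or Sca1-HGAL 4 it was 2. The shares of all genes in those fits are not given here. Over the arrays left out in turn, the mitotic median ran from -0.31 to -0.11 and the replication median from -0.09 to 0.001. In the 6 arrays with low Xist, which hold 2 Control and 4 Sca1-HGAL arrays, the mitotic median was -0.09 with 12 of 17 folds negative and the replication median was -0.03. There 0 members were lower at an unadjusted limma p under 0.05, against 3.00% of all genes. Control 1, the lowest Control array in 15 of 17 mitotic members, is 1 of the 2 Control arrays in that fit. Its part in the smaller mitotic median was not tested apart from that of the sex-linked genes.

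**Figure D5:**
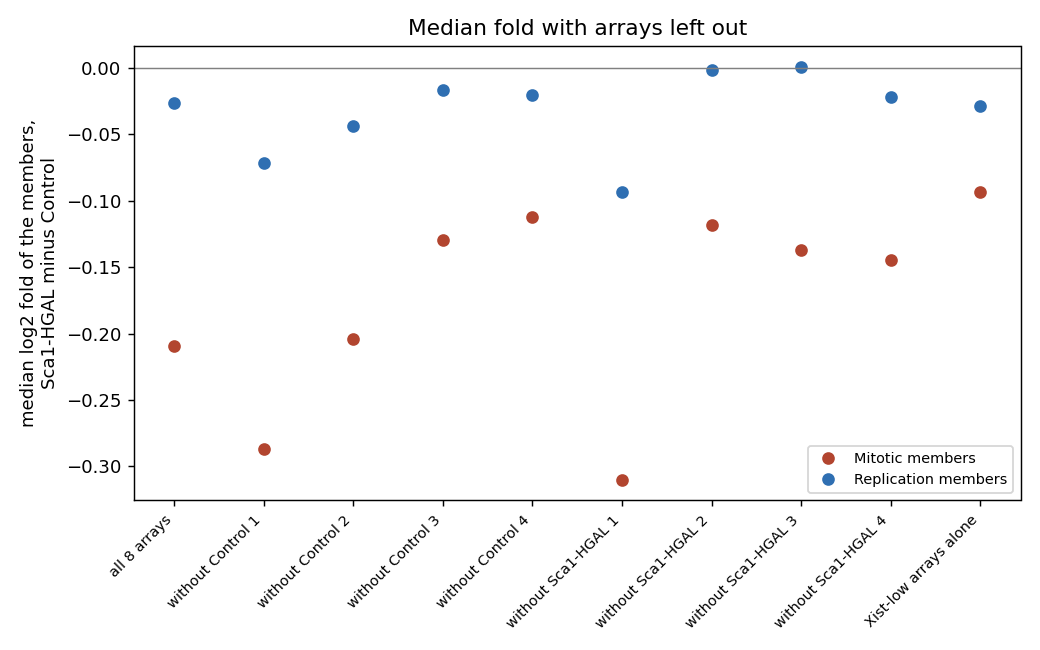
Median log2 fold of the mitotic and replication members (Sca1-HGAL minus Control) with all 8 arrays, with each array left out and in the 6 arrays with low Xist. The mitotic median stays between -0.31 and -0.09, and the replication median between -0.09 and 0.001.

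The other genes of the cell cycle, from lists that hold no member, had medians near 0 with all 8 arrays. For comparison, 4.03% of all genes were lower and 5.49% higher at an unadjusted limma p under 0.05 with all 8 arrays. Without Sca1-HGAL 1, 4.83% of all genes were lower and 40.7% of their folds were negative. Without Control 1, 3.92% of all genes were lower. Of 30 further mitotic genes, all measured, 2 were lower and 1 higher at an unadjusted limma p under 0.05, 0 passed an adjusted p under 0.05, and the median fold was -0.04. Over all genes, Sca1-HGAL 1 was the highest of its group in 23.6% and Control 1 the lowest of its group in 31.1%. These 30 genes had the members' order of arrays: Sca1-HGAL 1 was the highest in 24 (80%) and Control 1 the lowest in 25 (83.3%). Without Sca1-HGAL 1 their median was -0.13, with 24 of 30 folds negative against 18 with it, and 6 were lower at an unadjusted limma p under 0.05. Without Control 1 the median was -0.12 and 5 were lower. Cks2, a subunit of CDK complexes, had a fold of -0.55 (SE 0.14, adjusted p = 0.25), Ect2, a cytokinesis factor, one of -0.28 (SE 0.10, adjusted p = 0.42), and Racgap1, its partner at the midzone, one of 0.50 (SE 0.16, adjusted p = 0.36). Of 27 measured among 28 further replication genes, 3 were lower and 1 higher by the same counts, 0 were called, and the median was 0.02. In these 27 the order of arrays was less shared, with Sca1-HGAL 1 the highest of its group in 13 (48.1%) and Control 1 the lowest in 13 (48.1%). Without Sca1-HGAL 1 the median of these 27 was -0.01 and 5 were lower. Without Control 1 it was -0.0071 and 2 were lower. The 3 with the smallest p were Rfc3, a subunit of the clamp loader (0.26, adjusted p = 0.35), Cdc25a, a phosphatase that activates CDKs (-0.25, adjusted p = 0.38), and Dbf4, which activates the origin-firing kinase Cdc7 (-0.27, adjusted p = 0.41). Of 17 further genes of G1, all measured, 2 were lower, 1 was higher, 0 were called and the median was -0.02. In these 17, Sca1-HGAL 1 was the highest of its group in 7 (41.2%) and Control 1 the lowest in 4 (23.5%). Without Sca1-HGAL 1 the median was -0.07 and 4 were lower, and without Control 1 it was -0.0098 and 3 were lower.

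Cdk6, a kinase that D-type cyclins bind, lay nearest to the threshold among these lists. It was at 8.94, 9.37, 9.43 and 9.11 in Control and 8.55, 8.72, 8.59 and 8.58 in Sca1-HGAL arrays. All Sca1-HGAL arrays, Sca1-HGAL 1 included, lay below all Control arrays, and the fold was -0.61 (SE 0.11, limma adjusted p = 0.12). Cdk4, another kinase that D-type cyclins bind, had a fold of 0.0055 (SE 0.097, limma adjusted p = 0.995). Cdk2 had a fold of -0.20 (SE 0.07, adjusted p = 0.37) and Cdkn2d, a CDK inhibitor, one of 0.14 (SE 0.06, adjusted p = 0.46). Cdk6 thus did not share the order of high and low arrays seen in the mitotic members.

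The non-members most like the mean of the mitotic members, by Pearson's r over the 8 arrays among 15688 genes with a mean of at least log2 6, were Brip1 (0.985), Ly6e (0.979), Smyd2 (0.973), Tomm22 (0.970) and Plxnd1 (0.967). These values describe the same 8 arrays and carry no test. Ly6e, a surface protein of the Ly6 family, was at 12.04, 12.56, 13.37 and 13.26 in Control and 13.31, 12.13, 11.93 and 12.18 in Sca1-HGAL arrays. It is a different gene from Sca1, whose Ly-6E.1 promoter drives HGAL here.

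Markers of other cells and of further kinds of B cells also differed between the arrays that set the order of the members. The 8 measured T-cell markers averaged 7.98, 8.29, 8.36 and 8.14 in Control and 8.76, 8.42, 7.71 and 8.22 in Sca1-HGAL arrays, with Sca1-HGAL 1 the highest in its group in all 8. The 12 markers of neutrophils and their precursors averaged 6.29, 6.41, 6.87 and 6.49 in Control and 7.47, 7.06, 6.48 and 6.83 in Sca1-HGAL arrays. The 11 markers of B1 and age-associated B cells averaged 7.86 to 8.02 in Control and 9.57, 8.99, 8.24 and 8.58 in Sca1-HGAL arrays. Of these, 9 of 11 were higher at an unadjusted limma p under 0.05, against 5.49% of all genes, and 0 passed an adjusted p under 0.05. So were 6 of the 12 neutrophil markers, all 12 with positive folds, and 0 of the 8 T-cell markers. Cd5 is in both the T-cell list and the B1 list. The lists were chosen with earlier results of these data known, so these counts are descriptions and not tests. Sca1-HGAL 1 thus had the highest mean of all 8 arrays in these 3 lists, as it had in the mitotic members, and Control 1 the lowest Control mean. The order of the other arrays differed. Sca1-HGAL 2 lay above every Control array in these 3 lists, whereas its mean of the mitotic members, 7.11, was near the 7.09 of Control 1. Plasma cell markers (8) averaged 8.92 to 9.29 in Control arrays, 9.42 in Sca1-HGAL 1 and 8.75 to 9.04 in the other Sca1-HGAL arrays.

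The remaining marker lists did not put Sca1-HGAL 1 highest of all arrays. Germinal centre B-cell markers (8 of 10 measured) averaged 7.09 to 7.44 in Control and 6.94 to 7.25 in Sca1-HGAL arrays. NK-cell markers (7) averaged 6.53 to 7.03 and 6.10 to 6.85, macrophage markers (7 of 8) 7.60 to 8.07 and 7.67 to 8.15. Precursor B-cell markers (8) averaged 6.14 to 6.39 and 6.18 to 6.46, and erythroid precursor markers (8 of 12) 8.13 to 8.88 and 8.30 to 8.61. The array has no true zero, and 2 NK-cell, 2 neutrophil, 2 precursor B-cell and 1 macrophage marker had means under log2 6. The part of other cells in the members' levels was not tested.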

How the data were processed

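The 8 deposited columns, 1 per array, held intensities, for which the submitters' processing notes name RMA. RMA corrects background, quantile normalises arrays and summarises probes, so a shift shared by most genes would be removed. Which RMA version and build were used is not given in the sources used here. As deposited, values were linear; their log2 was computed without a pseudocount, and no filter was set. Of 34760 rows, 21640 had 1 gene symbol in the platform table and were fitted together in R 4.3.3 by the lmFit and eBayes functions of limma 3.58.1 for 2 groups, two-sided, with a threshold of 0.05 on Benjamini-Hochberg adjusted p. Counts over genes use the brightest probe set of each of 19937 genes.

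The members and all lists were chosen with earlier results of these data known. Every member could be named. Full values are given for the 8 mitotic and 6 replication members with the smallest p, for Mki67, Top2a, Pcna, Mcm2 and the G1 regulators, and for Kif11, Cdk6 and Ly6e, added after the values were seen. For each further cell-cycle list the 3 genes with the smallest p are named, with Cdk4 added beside Cdk6. Marker lists are given by their means, and for the pattern of the mitotic mean the 5 genes most like it.

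Groups and replicate numbers came from the sample titles, and the labels give no batch. Alternatives were a further quantile normalisation, median centring, a filter at a mean of log2 6, averaging a gene's probe sets, array weights, a trended robust prior, an ordinary linear model, the replicate number as a block, the arrays with low Xist alone, Xist as a covariate, and leaving out each array. The fit was tested on simulated data. Promoter windows came from RefSeq on GRCm38.p6. The number of arrays limits the precision.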

Additional observations from a re-analysis of the deposited data

Results flagged for a closer look

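In 11 of 80 groups of 4 values (members and means, each group apart), an array had a gap to its nearest neighbour above Dixon's 95% critical value for 4 arrays, as a share of the group's range, where chance gives about 1 in 20, or 4. In Sca1-HGAL arrays, replicate 1 was that array each time and the highest, at 8.93 for Ccnb2, 7.65 for Cdk1, 7.72 for Kif11, 9.50 for Mcm6, 7.92 for Rrm2 and 8.20 for E2f2. The other 3 Sca1-HGAL arrays lay between 8.06 and 8.10 for Ccnb2, between 6.43 and 6.49 for Kif11 and between 6.98 and 7.08 for Rrm2. It was also that array for the mean of the mitotic members, at 7.81, and of the replication members, at 8.57. In Control arrays, replicate 1 was the lowest, at 6.83 for Rrm2, 7.22 for Tyms and 8.27 for Tk1. The members share these arrays, so the groups are not independent.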

How the results depend on the processing

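No member passed an adjusted p under 0.05 by limma in any of 18 alternative settings (lowest 0.18, Ccne2). The mitotic median ran from -0.31 to -0.09 and the replication median from -0.09 to 0.001. In size they stayed under the SD of the members' mean level between replicates, 0.32 and 0.13. That SD comes from the same arrays, Sca1-HGAL 1 and Control 1 included, so it is no test of how stable the medians are. Of 37 members, 21 kept the sign of their fold and 16, with main folds of at most 0.21 in size, changed it at least once. The count of members lower at an unadjusted p under 0.05 was 2. It was 7 with array weights, 1 with an ordinary linear model and 0 in the arrays with low Xist. With Xist as a covariate it was 1, with the replicate block 1, and with an array left out 1 to 14. Shares of all genes are given further up for some of these fits. The share with array weights is not given here, so that count has no comparison. Same-numbered arrays of the groups did not deviate together, with correlations of -0.17, 0.04, -0.13 and -0.04 over all genes for replicates 1 to 4. The numbers were therefore not taken as pairs. Each number occurs once in each group, so the replicate block could not move a fold and says nothing about pairing. The ordinary linear model and the trended robust prior change the error and not the fold, so they could not turn a sign either. Nor could the filter at log2 6, and averaging probe sets could move only Top2a, Pcna, Tk1 and Cdkn1b. Xist as a covariate gave the same folds as the arrays with low Xist. Array weights were lowest for Sca1-HGAL 1 (0.49).

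In both Xist settings the folds turned to 0.048 for Mki67, 0.037 for Cdk1, 0.26 for Nusap1, 0.17 for E2f2, 0.034 for Tyms, -0.29 for Pcna and -0.029 for Rrm1. Birc5 turned to -0.030 with a further quantile normalisation, -0.032 with median centring and -0.029 with array weights. Rrm1 turned to -0.026 with median centring, and array weights gave -0.0028 for Rrm1, -0.014 for Ccne1 and -0.11 for Ccnd2. With an array left out, folds ran from -0.68 to 0.0057 for Mki67, -0.24 to 0.044 for Cdk1, -0.017 to 0.053 for Birc5, -0.072 to 0.14 for Bub1b, -0.21 to 0.23 for Nusap1, -0.045 to 0.11 for Ccne1, -0.096 to 0.0042 for Mcm2, -0.069 to 0.019 for Mcm3, -0.094 to 0.0069 for Mcm4, -0.072 to 0.012 for Mcm5, -0.066 to 0.26 for Pcna, -0.041 to 0.051 for Rrm1, -0.17 to 0.020 for Tyms, -0.054 to 0.0065 for Cdc45, -0.11 to 0.12 for E2f2 and -0.31 to 0.26 for Ccnd2. The cause of these changes was not tested. The files carry no detection calls, so how far a dim level such as that of Cenpe lies above background is not known here.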
